A study of Mus musculus with 11 samples.

Results

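The glucocorticoid response genes described here are *Nr3c1*, which encodes the glucocorticoid receptor, and 7 genes that the receptor is known to induce, *Tsc22d3*, *Fkbp5*, *Per1*, *Ddit4*, *Sgk1*, *Txnip* and *Zbtb16*. They were listed by name, matched to Ensembl identifiers, and all 8 were found among the 54418 genes of the count table. The samples are thymocytes, which are T cells still developing in the thymus. Their RNA was sequenced in 4 wt mice, 4 *Zmat3*-/- mice and 3 *Puma*-/-*p21*-/-*Zmat3*-/- mice (TKO). The mice were 8 to 12 weeks old and on a C57BL/6-WEHI background, the knockouts are constitutive, and the TKO line came from crossing *Zmat3*-/- with *Puma*-/-*p21*-/- mice, so all 7 mutant mice lack *Zmat3*. Each library was made from a single-cell suspension of a whole thymus that was not sorted, with no hormone treatment given in the labels, and the study asked how expression differed between the mutant genotypes and between each of them and wt. *Puma*-/-*p21*-/- mice with intact *Zmat3* were not analysed here.

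Corticosterone, the main glucocorticoid of mice, enters cells and binds the receptor, which waits in the cytoplasm on a chaperone complex. The bound receptor moves to the nucleus and attaches as a dimer to the glucocorticoid response element (GRE), an inverted repeat, to switch genes on. Thymocytes, above all the CD4+CD8+ double-positive cells, are known to be killed by this hormone, which is why the thymus shrinks during stress. Several of its targets also answer to other inputs, such as the clock for *Per1*, low oxygen for *Ddit4* and glucose for *Txnip*.

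The promoters are shown first because *Sgk1*, the gene with the clearest genotype difference, and *Txnip*, a known target with none detected, both hold a match to the GRE, complete in the first and partial in the second. RefSeq windows on GRCm38.p6, from 250 bases before to 50 bases after a transcription start, were found for 6 of the 8 genes and numbered 14 in all. *Nr3c1* and *Zbtb16* had no window. Window 5 of the 6 *Sgk1* windows (chr10:21993640-21993939, plus strand) held the full GRE palindrome, AGAACA followed after any 3 bases by its reverse complement TGTTCT. It began 189 bases before that start, at 21993701 to 21993715, and 965 bases before the start of window 6. The capitals mark this palindrome and, near the 5′ end, a further single copy of TGTTCT:
Sgk1: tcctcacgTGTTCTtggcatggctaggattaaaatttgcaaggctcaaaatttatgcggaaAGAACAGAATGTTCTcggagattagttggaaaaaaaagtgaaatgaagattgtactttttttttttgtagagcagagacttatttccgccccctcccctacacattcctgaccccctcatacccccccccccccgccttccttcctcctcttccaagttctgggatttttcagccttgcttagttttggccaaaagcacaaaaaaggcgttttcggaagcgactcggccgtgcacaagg
Both strands of 32851 windows of this length were searched, and 3 of them held the full palindrome (0.00913%). The other two belonged to *Acnat2* and *Gm35041*, which had mean levels of 0.00304 and 0.00591 CPM (counts scaled to library size) and were too low to test. A looser GRE core, which keeps only the most conserved bases of both arms and is contained in the full palindrome, was present in 0.475% of the windows. The *Txnip* window (chr3:96557707-96558006, plus strand) held it 172 bases before the start, in capitals:
Txnip: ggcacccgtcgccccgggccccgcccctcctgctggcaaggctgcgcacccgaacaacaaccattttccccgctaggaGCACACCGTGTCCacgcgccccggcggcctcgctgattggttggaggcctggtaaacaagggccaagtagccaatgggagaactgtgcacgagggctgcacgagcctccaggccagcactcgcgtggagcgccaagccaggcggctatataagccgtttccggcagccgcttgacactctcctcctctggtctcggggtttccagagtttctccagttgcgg
The single element AGAACA was found in 19.0% of windows, among them *Tsc22d3* window 2 and *Sgk1* windows 1, 4 and 5. *Per1* had no GRE match in its windows, which reach only 250 bases before a start, so sites further away were not searched. Its window 2 (chr11:69099902-69100201, plus strand) held TGACG, the core of the cAMP response element that CREB binds, in capitals, 132 bases before the start:
Per1: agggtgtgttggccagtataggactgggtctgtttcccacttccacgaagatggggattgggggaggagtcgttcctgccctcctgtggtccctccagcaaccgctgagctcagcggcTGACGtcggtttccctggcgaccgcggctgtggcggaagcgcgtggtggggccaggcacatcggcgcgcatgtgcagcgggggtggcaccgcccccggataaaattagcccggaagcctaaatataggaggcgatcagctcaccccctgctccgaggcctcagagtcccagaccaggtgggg
TGACG was present in 20.8% of windows, among them also *Per1* window 1, *Sgk1* window 2 and *Tsc22d3* window 3. The E-box CACGTG, which clock factors bind, was present in 7.15% of windows, among them *Per1* window 1, the *Fkbp5* window and *Sgk1* window 5. The *Ddit4* window held none of these motifs. A match describes letters in a window, and binding was not measured.

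The libraries held 17669715 to 80207003 counts, and the genes listed had at least 597 counts in each mouse, except *Zbtb16*. The targeted genes were still counted in the mice that lack them, and their lower mean levels there passed an adjusted p of 0.05 in no comparison by edgeR (0.0786 for *Zmat3* in *Zmat3*-/- and 0.371 in TKO against wt mice, 0.399 for *Bbc3* and 0.443 for *Cdkn1a* in TKO against wt mice). In these comparisons the groups did not overlap, whereas *Bbc3* in TKO mice overlapped *Zmat3*-/- mice (adjusted p = 0.983 from edgeR, and 0.384 for *Cdkn1a*, which did not overlap). *Zmat3* had 19.1 ± 9.49 CPM (SD, n = 4) in wt, 6.11 ± 0.717 CPM (n = 4) in *Zmat3*-/- and 7.92 ± 0.359 CPM (n = 3) in TKO thymocytes. *Bbc3*, which encodes PUMA, had 18.7 ± 1.19, 17.3 ± 1.96 and 13.6 ± 2.02 CPM, and *Cdkn1a*, which encodes p21, 6.55 ± 3.17, 6.58 ± 1.87 and 3.12 ± 0.743 CPM, in the same order of genotypes and mice. The wt mice fell into pairs. Between wt mice 1 and 2 and wt mice 3 and 4, 2878 of 12950 genes differed by more than 2-fold in mean level, against 96 genes between the same pairs of *Zmat3*-/- mice and 145 between TKO mouse 1 and the other two. Longer transcripts were lower in wt mice 1 and 2 (Spearman rho of the difference with exon length −0.495 across genes, against −0.167 in *Zmat3*-/- and −0.198 in TKO mice). *Xist*, which is transcribed in female cells, had a high level (501 to 1498 CPM) in 5 mice, namely TKO mouse 1 and mice 1 and 2 of wt and of *Zmat3*-/-, and a low level (0.733 to 2.6 CPM) in 6. The labels give no sex. The 8 genes were therefore also compared with each wt pair alone, a choice made after the data were seen.

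Thymocyte identity was checked with 9 markers (*Cd3e*, *Cd3g*, *Lck*, *Cd4*, *Cd8a*, *Cd8b1*, *Rag1*, *Rag2* and *Themis*), all of which were expressed and tested. Their sum over the list ranged from 9540 to 12900 CPM among wt, 10200 to 12200 CPM among *Zmat3*-/- and 11400 to 13100 CPM among TKO mice. Markers of thymic stroma and fibroblasts (15 genes) summed to 204 to 316, 243 to 266 and 196 to 260 CPM, and those of myeloid cells (10 genes) to 189 to 359, 260 to 359 and 148 to 411 CPM in the same order. B cell markers (6 genes) summed to 495 to 836, 468 to 509 and 486 to 539 CPM. Erythroid genes (6) varied most, from 867 to 8690 CPM among wt mice alone. Markers of mature single-positive thymocytes (6 genes) summed to 462 to 544 CPM in wt, 413 to 470 CPM in *Zmat3*-/- and 420 to 468 CPM in TKO mice. No gene of these marker lists passed an adjusted p of 0.05 in any comparison. At an unadjusted p under 0.05, which 16.1% of all genes passed in *Zmat3*-/- against wt mice, 4 of 13 stroma and fibroblast markers tested were higher in *Zmat3*-/- mice and 1, *Ccl25* (log2FC −0.59), was lower. The 4 included the collagen genes *Col3a1* (log2FC 1.30) and *Col1a2* (1.28), named here after their values were seen. Lower at the same threshold were 3 of 6 markers of mature single-positive cells, 2 of the 9 thymocyte markers and 2 of 7 markers of innate-like T cells, and 1 of the 10 myeloid markers, *Adgre1* (log2FC 0.70), was higher. The part of these cells in the values below was not tested. In such a mixture, fewer cells of a type and less RNA per cell cannot be told apart.

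All 8 genes were transcribed in every mouse, at very different levels. Per kb of exon, *Txnip* had the highest level, 133 CPM per kb as the mean of 11 mice, followed by *Ddit4* at 52.9 CPM per kb. *Nr3c1* (26.8), *Fkbp5* (26.0) and *Tsc22d3* (23.2 CPM per kb) came next and could not be ordered, because their ranges over mice, from 14.0 to 34.7, 22.6 to 32.6 and 15.0 to 34.7 CPM per kb, overlapped. *Per1* (8.79) and *Sgk1* (8.08 CPM per kb) also overlapped, and *Zbtb16* lay far below, at 0.324 CPM per kb. Among mice, *Txnip* and *Fkbp5* varied least, by 1.37 and 1.44 times between the lowest and the highest mouse, *Ddit4*, *Per1*, *Tsc22d3*, *Sgk1* and *Nr3c1* by 2.11 to 2.47 times, and *Zbtb16* by 4.25 times.

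**Figure D1:**
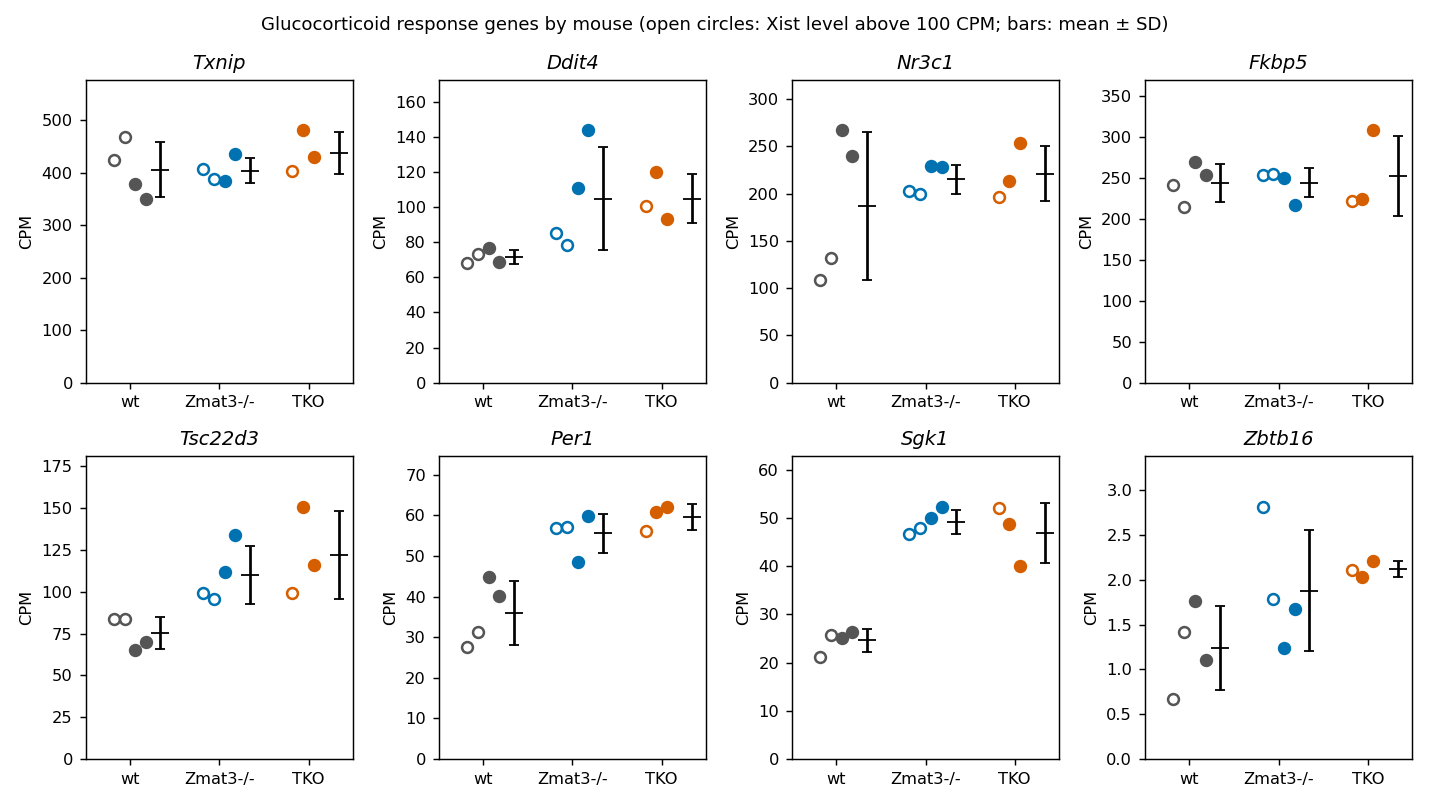
Levels of the 8 genes in CPM (vertical axes, each starting at 0) in 4 wt, 4 Zmat3-/- and 3 TKO mice, ordered from left to right within a genotype by replicate number, with the mean ± SD beside them. Open circles mark mice with an Xist level above 100 CPM. The Sgk1 circles of wt mice, at 21.2 to 26.3 CPM, lie below every mutant mouse, whereas the Nr3c1 circles of wt mice split into a low and a high pair.

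For *Sgk1*, *Per1*, *Tsc22d3* and *Ddit4*, every mouse of both mutant genotypes lay above every wt mouse. Of these differences, 1 passed the adjusted test, that of *Sgk1* in *Zmat3*-/- mice, where its level was 2.01 times that of wt. Taking each comparison alone, every mutant mouse lay above every wt mouse for 7.04% of all genes tested in *Zmat3*-/- and 6.78% in TKO mice. The share for both at once was not counted. *Fkbp5* and *Txnip* had fitted folds of 0.997 to 1.07 over the 3 comparisons, the order of *Nr3c1* depended on which wt mice were used, and *Zbtb16* was too low to resolve. None of the 8 genes differed detectably between TKO and *Zmat3*-/- mice.

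*Sgk1* (chromosome 10, 21882184 to 21999903, plus strand, GRCm38) encodes a kinase related to AKT that regulates ion transport and FOXO factors. It had 21.2, 25.8, 25.2 and 26.3 CPM in wt mice 1 to 4, 46.6, 47.9, 50.1 and 52.4 CPM in *Zmat3*-/- mice 1 to 4 and 52.0, 48.7 and 40.1 CPM in TKO mice 1 to 3. The highest wt mouse lay well below the lowest mutant mouse, and both wt pairs lay together. Against wt, the *Zmat3*-/- log2FC was 1.00 (standard error 0.100, 95% interval 0.78 to 1.23, adjusted p = 0.00505 from edgeR), which placed it 14th by p among 13494 genes tested. In TKO against wt mice it was 0.92 (standard error 0.148, 95% interval 0.58 to 1.26), and the adjusted p of 0.0706 from edgeR did not pass. The exact permutation p was 0.0286 in each of these comparisons, the smallest that the numbers of mice allow. Against wt mice 3 and 4 alone the log2FC was 0.93 in *Zmat3*-/- and 0.86 in TKO mice, and against wt mice 1 and 2 alone 1.06 and 0.99. The *Zmat3*-/- value passed with any single mouse left out (adjusted p 0.00512 to 0.0355 from edgeR), and the TKO value did not (0.103 to 0.375).

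*Per1*, a repressor in the core loop of the circadian clock that glucocorticoids also induce (chromosome 11, 69095217 to 69109960, plus strand), had 27.7, 31.2, 44.8 and 40.2 CPM in wt mice 1 to 4. It had 56.9, 57.1, 48.6 and 59.8 CPM in *Zmat3*-/- mice and 56.1, 60.9 and 62.2 CPM in TKO mice. All 7 mutant mice lay above all wt mice. The log2FC was 0.63 in *Zmat3*-/- (standard error 0.161, adjusted p = 0.116 from edgeR, exact permutation p = 0.0286) and 0.72 in TKO mice (standard error 0.179, adjusted p = 0.271, exact permutation p = 0.0571). Since wt mice 3 and 4 were the higher pair, the log2FC against them was 0.39 and 0.48, and against wt mice 1 and 2 it was 0.91 and 1.01.

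*Tsc22d3* encodes GILZ, a leucine zipper protein and one of the classic induced transcripts of thymocytes (chromosome X, 140539528 to 140600659, minus strand). Its levels were 84.0, 83.5, 65.2 and 69.8 CPM in wt mice 1 to 4, 99.2, 95.4, 112 and 134 CPM in *Zmat3*-/- mice and 99.5, 151 and 116 CPM in TKO mice. No mutant mouse reached down to the wt range, but here wt mice 1 and 2 were the higher pair. The log2FC was 0.54 in *Zmat3*-/- (standard error 0.141, adjusted p = 0.119 from edgeR) and 0.67 in TKO mice (standard error 0.178, adjusted p = 0.300), with an exact permutation p of 0.0286 for both. It was 0.70 and 0.84 against wt mice 3 and 4, and 0.38 and 0.53 against wt mice 1 and 2.

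*Ddit4* encodes REDD1, an inhibitor of the growth kinase mTORC1 (chromosome 10, 59949669 to 59951834, minus strand). It had 68.3, 73.6, 76.7 and 68.8 CPM in wt mice 1 to 4, the tightest wt group of the 8 genes relative to its mean, 85.5, 78.5, 111 and 144 CPM in *Zmat3*-/- mice and 101, 120 and 93.1 CPM in TKO mice. The groups did not overlap, although *Zmat3*-/- mouse 2 lay only slightly above the highest wt mouse. The log2FC was 0.55 in *Zmat3*-/- (standard error 0.186, adjusted p = 0.206 from edgeR) and 0.53 in TKO mice (standard error 0.130, adjusted p = 0.255), with an exact permutation p of 0.0286 for both. The choice of wt pair moved these values little, to between 0.52 and 0.55, but the *Zmat3*-/- value rested in part on mouse 4 and was 0.35 without it and 0.66 without mouse 2. It was 0.81 among mice with a low *Xist* level and 0.21 among those with a high level.

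*Fkbp5* encodes FKBP51, the co-chaperone that lowers hormone binding by the receptor and serves as a standard readout of glucocorticoid action (chromosome 17, 28399094 to 28517527, minus strand). It had 241, 214, 269 and 253 CPM in wt mice 1 to 4, 253, 255, 250 and 217 CPM in *Zmat3*-/- mice and 222, 224 and 308 CPM in TKO mice. The 3 ranges overlapped throughout. The 95% interval of the log2FC was −0.25 to 0.25 for *Zmat3*-/- against wt and −0.35 to 0.40 for TKO against wt mice, so the log2FC of 1.00 measured for *Sgk1* in *Zmat3*-/- mice lay outside both. *Fkbp5* lies 573449 bases from *Cdkn1a*, the gene deleted in TKO mice, on the same chromosome. Of 32 genes tested with any part within 1 Mb of *Cdkn1a*, 0 passed an adjusted p of 0.05 between TKO and *Zmat3*-/- mice in edgeR. Only 0.221% of all genes passed there, and *Cdkn1a* itself did not (adjusted p = 0.384 from edgeR), so a count of 0 says little about this region. Of the 29 genes that passed there in all, 19 lay on chromosome 17. The share of all tested genes on that chromosome is not given here.

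*Txnip*, an arrestin-family protein that binds thioredoxin and limits glucose uptake (chromosome 3, 96557957 to 96561883, plus strand), had 425, 469, 379 and 350 CPM in wt mice 1 to 4. It had 408, 388, 384 and 436 CPM in *Zmat3*-/- mice and 403, 481 and 430 CPM in TKO mice. Every *Zmat3*-/- mouse lay within the wt range. The log2FC had a 95% interval of −0.28 to 0.27 for *Zmat3*-/- and of −0.28 to 0.46 for TKO against wt mice. The antisense gene *Gm15441* overlaps *Txnip*, with a mean of 29.6 counts per library, and reads of the overlap cannot be told apart because the kit does not mark strand.

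*Nr3c1*, the receptor itself (chromosome 18, 39410545 to 39519421, minus strand), had 108, 132, 267 and 240 CPM in wt mice 1 to 4, 203, 199, 229 and 228 CPM in *Zmat3*-/- mice and 196, 213 and 253 CPM in TKO mice. The wt mice thus held both the lowest and the highest levels of the 11, and every *Zmat3*-/- mouse fell into the gap between the wt pairs. The log2FC was 0.20 in *Zmat3*-/- (standard error 0.279, adjusted p = 0.732 from edgeR) and 0.23 in TKO mice (standard error 0.320, adjusted p = 0.785). Against wt mice 3 and 4 alone it was −0.24 (adjusted p = 0.0307) and −0.21 (adjusted p = 0.243), and against wt mice 1 and 2 alone it was 0.83 (adjusted p = 0.000241) and 0.86 (adjusted p = 0.00236), all from edgeR, so no direction can be given for the receptor.

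*Zbtb16* encodes PLZF, the factor of innate-like T cells (chromosome 9, 48654297 to 48836222, minus strand), and had only 22 to 181 counts per library. Its levels were 0.664, 1.42, 1.77 and 1.10 CPM in wt mice 1 to 4, 2.82, 1.79, 1.24 and 1.68 CPM in *Zmat3*-/- mice and 2.11, 2.03 and 2.21 CPM in TKO mice. TKO mice lay above wt mice, and *Zmat3*-/- mice overlapped both. The log2FC of 0.76 in TKO (standard error 0.365, adjusted p = 0.515 from edgeR) and 0.61 in *Zmat3*-/- mice (standard error 0.369, adjusted p = 0.448) had intervals that included 0. Markers of innate-like T cells (8 genes) summed to 78.9 to 104 CPM in wt, 80.9 to 82.9 CPM in *Zmat3*-/- and 84.3 to 101 CPM in TKO mice, and their part in the *Zbtb16* values was not tested.

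**Figure D2:**
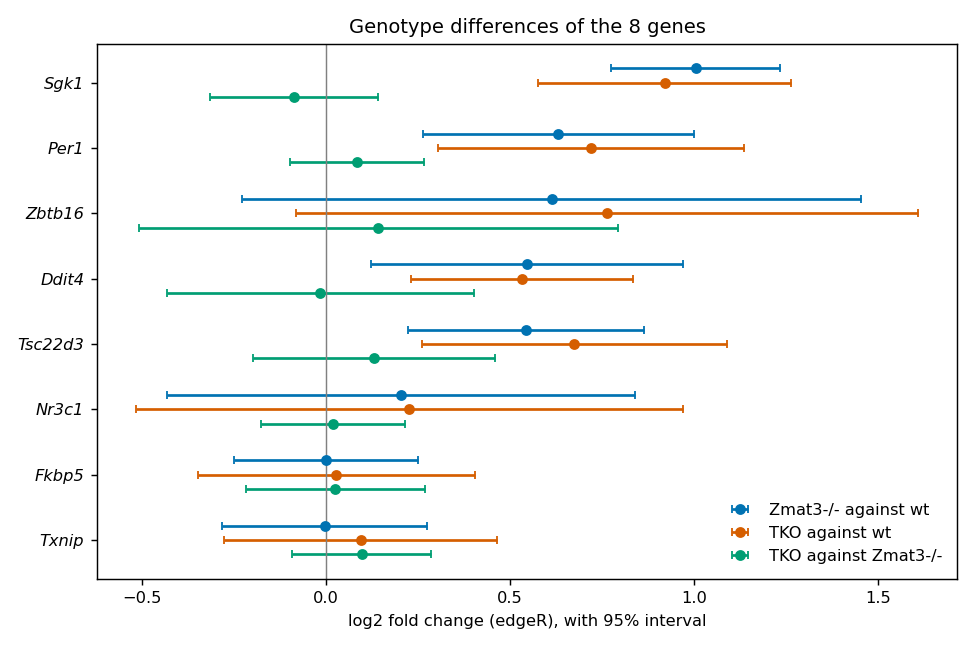
Log2 fold change (horizontal axis) of the 8 genes with its 95% interval in the 3 comparisons of genotypes. Sgk1 lies near 1.00 against wt in both mutant genotypes, Txnip and Fkbp5 lie near 0, and every interval of the TKO against Zmat3-/- comparison includes 0.

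Counted together, 1 of the 8 genes (*Sgk1*) passed an adjusted p of 0.05 in *Zmat3*-/- against wt mice, where 0.763% of all genes tested did. None (0 of 8) passed in TKO against wt mice, where 0.294% of all genes did, and 0 in TKO against *Zmat3*-/- mice, where 0.221% did. At an unadjusted p under 0.05 the edgeR counts were 4 of 8 in *Zmat3*-/- against wt (16.1% of all genes), 4 of 8 in TKO against wt (10.3%) and 0 of 8 in TKO against *Zmat3*-/- mice (4.50%). DESeq2 gave 3, 4 and 0 genes at an adjusted p under 0.05, where it called 8.04%, 2.87% and 0.556% of all genes. None reached the log2FC of 1.5 used with the adjusted p to call a gene DE, a call made for 0.319%, 0.241% and 0.122% of all genes in the same order. Mice of the groups did not overlap, with the mutant higher, for 4 of 8 genes in *Zmat3*-/- against wt (7.04% of all genes) and 5 of 8 in TKO against wt (6.78%), and for 0 of 8 in TKO against *Zmat3*-/- mice (3.21%). The median log2FC of the 8 genes was 0.54 and 0.60, against −0.03 and −0.04 over all genes tested. These comparisons share the 4 wt mice, so their likeness is not independent. Between TKO and *Zmat3*-/- mice the 8 log2FC values ran from −0.09 to 0.14, with groups overlapping for all 8 genes.

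**Figure D3:**
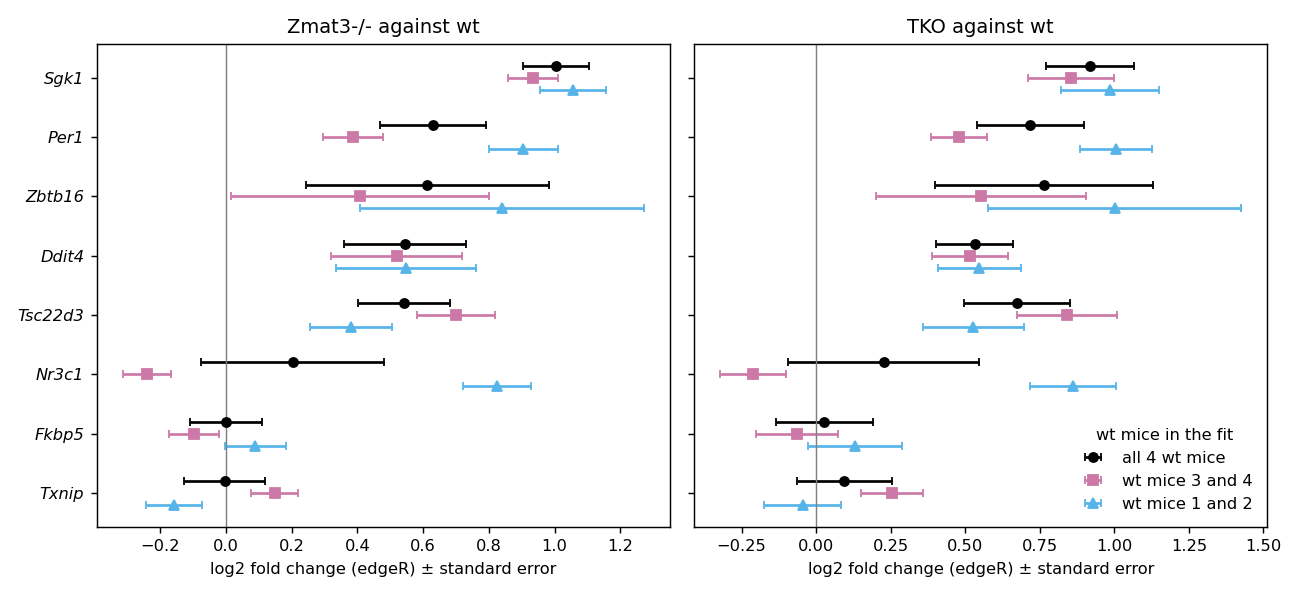
Log2 fold change ± standard error (horizontal axis) of the 8 genes in Zmat3-/- (left) and TKO mice (right) against all 4 wt mice, wt mice 3 and 4 alone or wt mice 1 and 2 alone. Sgk1 stays between 0.86 and 1.06, Ddit4 between 0.52 and 0.55, and Nr3c1 changes sign with the wt pair.

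Leaving out a wt pair also changed how many genes passed in all. Against wt mice 3 and 4, 4 of the 8 genes passed in *Zmat3*-/- mice where 33.0% of all genes did, and 4 in TKO mice where 8.15% did. Against wt mice 1 and 2 the counts were 4 (56.1% of all genes) and 5 (43.6%).

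The receptor's partners gave no called gene. An unadjusted p under 0.05 in edgeR was reached by 16.1% of all genes in *Zmat3*-/- and 10.3% in TKO against wt mice. Of 12 chaperones, co-chaperones and coregulators, 8 were higher and 4 lower in *Zmat3*-/- against wt mice and 9 and 3 in TKO mice, with 0 at an adjusted p under 0.05 in edgeR and 1 and 0 at an unadjusted p. The co-chaperone *Bag1* had the lowest log2FC in TKO mice (−0.18, standard error 0.325), with levels of 100 to 117 CPM in wt mice 1 and 2 and 48.9 to 52.0 CPM in wt mice 3 and 4. Of 8 genes for steroid synthesis, steroid conversion and related receptors, 4 were expressed enough to test and 0 passed in either comparison in edgeR, with 1 (lower) and 0 at an unadjusted p. Among them *Cyp11a1*, the first enzyme of steroid synthesis, had the lowest log2FC in TKO mice, −0.16 (adjusted p = 0.816 from edgeR). In *Zmat3*-/- against wt mice 3 of the 4 were lower and 1 higher. *Cyp11a1* had −0.425 there (adjusted p = 0.336 from edgeR). *Hsd11b1*, named here after its values were seen, had −0.34 (adjusted p = 0.199 from edgeR).

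Of 20 other genes that glucocorticoids are known to induce, 18 were tested, and they did not move in one direction. In each comparison with wt, 9 had a positive and 9 a negative log2FC, with a median of 0.01 in *Zmat3*-/- and 0.05 in TKO mice. *Dusp1*, a phosphatase that shuts off MAP kinases, rose in both. It had 32.4, 32.8, 16.0 and 14.6 CPM in wt mice 1 to 4, 114, 123, 106 and 124 CPM in *Zmat3*-/- mice and 125, 112 and 140 CPM in TKO mice. The log2FC was 2.28 (standard error 0.285, adjusted p = 0.0148 from edgeR) and 2.37 (standard error 0.322, adjusted p = 0.0350). *Cxcr4*, a chemokine receptor of thymocytes, fell in *Zmat3*-/- mice (log2FC −0.99, standard error 0.141, adjusted p = 0.0248 from edgeR). It had 229, 223, 293 and 304 CPM in wt mice, 117, 125, 141 and 146 CPM in *Zmat3*-/- mice and 112, 144 and 153 CPM in TKO mice, where the log2FC of −0.96 did not pass (adjusted p = 0.128). Both calls were lost in some fits without 1 mouse. In *Zmat3*-/- against wt mice the *Dusp1* call was lost without any 1 of the 4 *Zmat3*-/- mice (adjusted p 0.0612 to 0.0707 from edgeR), and the *Cxcr4* call also without wt mouse 3 or 4 (0.0592 to 0.116). In TKO against wt mice the *Dusp1* call was kept without wt mouse 1 (0.0325) and lost without any other mouse (0.0549 to 0.201). *Cebpd*, a transcription factor, had the lowest log2FC in TKO mice (−1.08, adjusted p = 0.434 from edgeR).

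**Figure D4:**
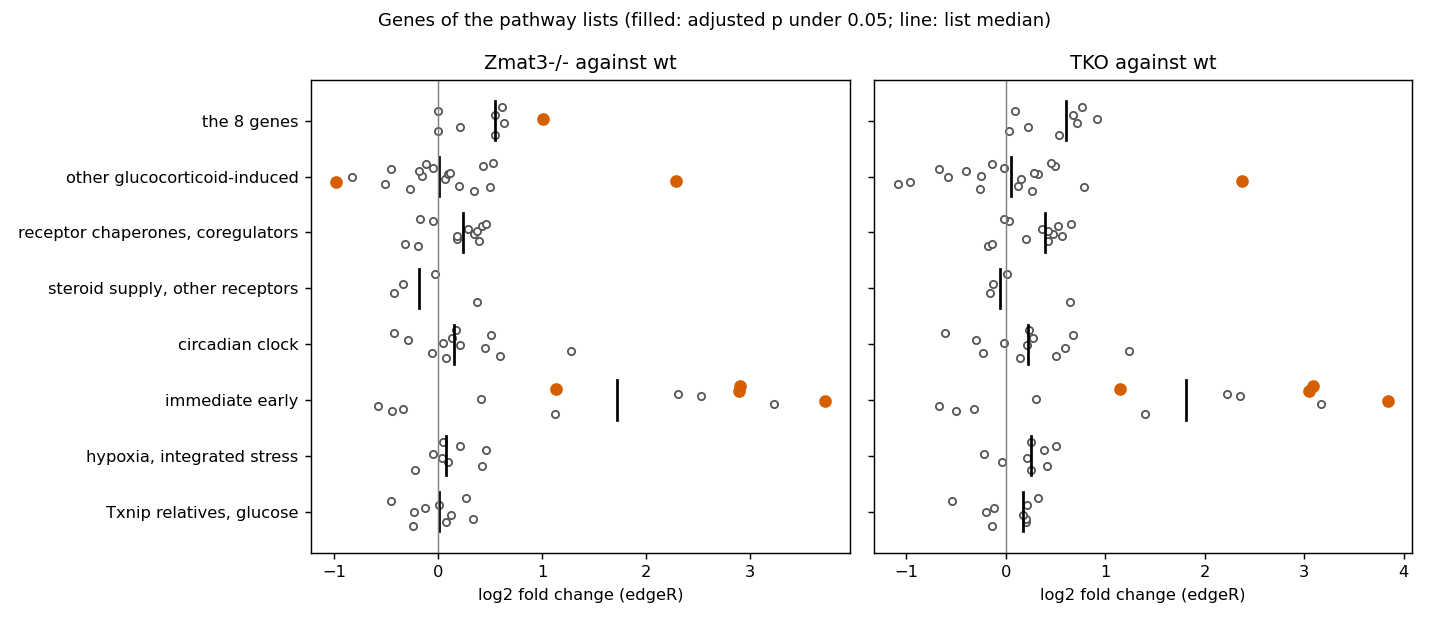
Log2 fold change (horizontal axis) of every tested gene of the 8-gene list and 7 related lists in Zmat3-/- (left) and TKO mice (right) against wt, with filled circles at an adjusted p under 0.05 and a line at each list's median. The other glucocorticoid-induced genes spread on both sides of 0, whereas 9 of 12 immediate-early genes lie above 0 in each panel.

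*Dusp1* is also an immediate-early gene, a class that cells switch on within minutes of many stimuli. Of 12 other immediate-early genes, 4 (*Fosb*, *Klf4*, *Sik1* and *Nr4a1*) rose at an adjusted p under 0.05 in both comparisons with wt, and 0 fell, where 0.763% of all genes passed in *Zmat3*-/- and 0.294% in TKO mice. At an unadjusted p under 0.05, which 16.1% and 10.3% of all genes passed, 7 were higher and 3 (*Egr1*, *Egr2* and *Btg2*) lower in both comparisons. *Sik1*, a kinase induced through CREB, had 13.2 to 19.6 CPM in wt, 111 to 137 CPM in *Zmat3*-/- and 137 to 149 CPM in TKO mice (log2FC 2.90 and 3.09, adjusted p = 0.00011 and 0.000205 from edgeR). *Fosb*, an AP-1 subunit, had 2.01 to 4.35, 23.4 to 46.9 and 19.8 to 55.8 CPM (log2FC 3.73 and 3.84). *Klf4* had a log2FC of 2.89 and 3.05 and *Nr4a1*, a nuclear receptor induced by T cell receptor signals, of 1.13 and 1.15. *Egr2* was lowest, at −0.58 and −0.67 (adjusted p = 0.0856 and 0.241 from edgeR). The summed level of the 12 genes was 752 to 1100 CPM in wt, 1530 to 1900 CPM in *Zmat3*-/- and 1620 to 1900 CPM in TKO mice, so its ranges did not overlap between wt and mutant mice, as for *Sgk1*, *Per1*, *Tsc22d3* and *Ddit4*. Its part in their values was not tested.

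The lists for the other inputs of these genes held no called gene. For the counts at an unadjusted p under 0.05, the share of all genes in edgeR was 16.1% in *Zmat3*-/- and 10.3% in TKO against wt mice. Of 12 further clock genes, 9 were higher and 3 lower in *Zmat3*-/- and 8 and 4 in TKO mice, with 0 at an adjusted p under 0.05 in edgeR and 2 in each at an unadjusted p. The clock repressor *Ciart* had the highest log2FC, 1.27 (adjusted p = 0.0940 from edgeR) and 1.24 (adjusted p = 0.326), and *Per3* the lowest in TKO mice, −0.62 (adjusted p = 0.600). Of 12 hypoxia and integrated stress genes that share inducers with *Ddit4*, 8 were tested and 0 passed, with 1 at an unadjusted p in each comparison. *Sesn2* was highest and *Ndrg1* lowest in TKO mice, with log2FC values of 0.51 and −0.22. Of 10 relatives of *Txnip* and genes of glucose handling, 9 were tested and 0 passed, with 1 at an unadjusted p in each. *Txnrd1*, which reduces thioredoxin, was highest at 0.32 in TKO mice, and *Txn1*, thioredoxin itself, lowest at −0.54, with 406 and 273 CPM in wt mice 1 and 2 and 128 to 182 CPM in the other 9 mice. Of 10 paralogs, 9 were tested and 0 passed in edgeR, with 1 at an unadjusted p in each. *Tsc22d2*, a relative of *Tsc22d3*, had the highest log2FC, 0.70 and 0.83 (adjusted p = 0.128 and 0.307).

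Across the 11 mice, which share genotypes and the split among wt mice, the genes did not form a single block. Pearson's r of log2 CPM was 0.87 between *Per1* and *Sgk1*, 0.86 between *Tsc22d3* and *Ddit4* and 0.79 between *Sgk1* and *Ddit4*, but −0.12 between *Fkbp5* and *Sgk1* and −0.43 between *Fkbp5* and *Txnip*. *Nr3c1* was at 0.74 with *Per1* and 0.15 with *Tsc22d3*. Among 12957 genes, those most like *Sgk1* were *Gm26885* (0.985), *Vps35* (0.980) and *Sik1* (0.973), and those most like *Per1* were *Polr2b* (0.985), *Eif3a* (0.983) and *Ipo7* (0.977). *Nr3c1* was most like *Psd3* (0.994), *Pkn2* (0.993) and *Nrip2* (0.992). Among the genes most like *Tsc22d3* were *Scaper* (0.939) and *Gtdc1* (0.932). For *Fkbp5* they were the cell cycle genes *E2f8* (0.966), *Prr11* (0.959) and *Espl1* (0.943). *Ddit4* was followed by *Zfp658* (0.916), *Trbv15* (0.906) and *3110001I22Rik* (0.887), *Txnip* by *Tbrg1* (0.945), *Zfand3* (0.915) and *Sssca1* (0.901), and *Zbtb16* by *Msn* (0.929), *Gclc* (0.887) and *Cyth3* (0.885).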

How the data were processed

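The authors ran the nf-core/rnaseq pipeline with Salmon on GRCm38.p6 and deposited estimated counts per gene, not normalized, all 598598 of them whole numbers. Names and positions came from GENCODE M21 (the paper used vM25), which held 54166 of the 54418 genes. A gene was tested if enough mice to fill the smaller group had 20 or more counts at the depth of the smallest library. Following the paper, no test was made of *Xist*, rRNA, Y-linked genes or non-coding genes of immunoglobulins. Genotypes from the labels were compared in pairs by the two-sided quasi-likelihood F-test of edgeR 4.0.16 under R 4.3.3, with TMM scaling and Benjamini-Hochberg adjustment over all genes tested. Standard errors are the size of the log2FC over the root of F. CPM used TMM factors over all 11 mice, and log2 CPM a prior count of 2. Single genes were also compared by two-sided exact permutation tests (scipy 1.17.1). At 3 counts, libraries could show 0.0367 to 0.174 CPM, for counting error only. DESeq2 1.42.0, 1 surrogate variable (sva 3.50.0) and the *Xist* level, in place of sex, which the labels do not give, were each tried alone. The paper's design, which combines them, was not run. The code was tested on simulated data. The 8 genes and all lists were chosen with earlier results of these data known. Named from the lists were genes at an adjusted p under 0.05 and, per list, the highest and lowest log2FC in TKO against wt mice. A few genes that this rule names are not reported here. The replicates are separate mice. *Ddit3*, present under 2 identifiers, was left out.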

Additional observations from a re-analysis of the deposited data

Results flagged for a closer look

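*Fkbp5* in *Zmat3*-/- mouse 4 (217 CPM) lay below the other 3 mice of its group (250 to 255 CPM), which lay close together, but within the wt range (214 to 269 CPM). It was 1 of 16 groups of 4 mice tested for an outlying mouse, and chance alone flags about 1 group in 20.

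The difference from wt was also tested for a dependence on the *Xist* level of the mice (above or below 100 CPM), as a genotype by *Xist* class term in edgeR. For *Zmat3*-/- against wt mice the log2FC in mice with a high minus that in mice with a low *Xist* level was 0.89 for *Nr3c1* (adjusted p = 0.000988), 0.60 for *Per1* (adjusted p = 0.0135), −0.64 for *Tsc22d3* (adjusted p = 0.00336) and −0.60 for *Ddit4* (adjusted p = 0.0170). For TKO against wt mice it was 0.84 for *Nr3c1* (adjusted p = 0.0306). *Per1*, *Tsc22d3* and *Ddit4* had a positive log2FC in both classes, whereas that of *Nr3c1* was −0.15 at the low and 0.74 at the high level in *Zmat3*-/- mice and −0.14 and 0.70 in TKO mice. *Sgk1* had 1.00 and 1.01 in *Zmat3*-/- mice (difference 0.02, adjusted p = 0.945). The *Xist* classes coincide with the wt pairs, so the pairs and the *Xist* level cannot be told apart, and the same term passed for 44.2% of all genes in *Zmat3*-/- and 23.1% in TKO against wt mice. The high class of TKO holds 1 mouse, whose spread is assumed to match that of the other groups.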

How the results depend on the processing

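*Sgk1*, *Per1*, *Tsc22d3* and *Ddit4* kept a positive log2FC against wt under all 19 alternatives in *Zmat3*-/- and all 18 in TKO mice, and 0 of the 8 genes passed in TKO against *Zmat3*-/- mice under any of 16. The number passing an adjusted p of 0.05 in TKO against wt mice (0) became 4 with DESeq2, 2 with all genotypes in one fit (1.62% of all genes passed, 219 of 13522), 4 with 1 surrogate variable, 4 without wt mice 1 and 2 and 5 without wt mice 3 and 4. In *Zmat3*-/- against wt mice (1) it became 3 with DESeq2, 5 with a surrogate variable, and 4 without either wt pair. With the surrogate variable, 37.7% and 14.2% of all genes passed in *Zmat3*-/- and TKO against wt mice. The other glucocorticoid genes pool the receptor's partners, the steroid genes and the other induced genes, of which 12, 4 and 18 were tested by edgeR. Their number at an adjusted p under 0.05 went from 2 to 4 with DESeq2 in *Zmat3*-/- and from 1 to 3 in TKO against wt mice. DESeq2 called 8.04% and 2.87% of all genes there, against 0.763% and 0.294% by edgeR. Without 1 mouse the number in the pool ranged from 0 to 2 in *Zmat3*-/- and from 0 to 1 in TKO against wt mice. In TKO against *Zmat3*-/- mice it ranged from 0 to 1, where the 1 came without TKO mouse 3. The cause was not tested.

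With the replicate number as a block, 0 of the 8 genes and 0 of the other glucocorticoid genes passed in either comparison with wt, with *Sgk1* at a log2FC of 1.01 and an adjusted p of 0.0560 from edgeR in *Zmat3*-/- mice, and 12 genes passed in all against 103 without it. The labels tie the numbers to no litter or batch. Deviations of same-numbered mice correlated at 0.0706 to 0.386 (TKO and wt), 0.0857 to 0.324 (*Zmat3*-/- and wt) and −0.003 to 0.165 (TKO and *Zmat3*-/-), against −0.401 to 0.337 for other pairings, and not every mouse correlated best with its own number. Mice 1 and 2 also differ from mice 3 and 4 in *Xist* level in wt and *Zmat3*-/- mice.

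Signs that changed belonged to values that passed in none of the fits given, except *Nr3c1*. Without wt mice 1 and 2, *Nr3c1* had −0.24 in *Zmat3*-/- and −0.21 in TKO against wt mice, *Fkbp5* −0.097 and −0.0642, and *Txnip* 0.15 in *Zmat3*-/- mice. Without wt mice 3 and 4, *Txnip* had −0.0456 in TKO mice. *Fkbp5* in *Zmat3*-/- against wt mice also took −0.0035 without a filter, −0.0043 with a filter at 10 counts, 0.0 with no gene class left out, −0.0084 in one fit and −0.0102 with a surrogate variable, and in TKO against wt mice −0.0109 with a surrogate variable and −0.0085 with the *Xist* level. *Txnip* in *Zmat3*-/- against wt mice took 0.003 with the block, 0.0277 with a surrogate variable and 0.0013 with the *Xist* level. Between TKO and *Zmat3*-/- mice, *Nr3c1* took −0.0403 with a surrogate variable and −0.0081 with the *Xist* level, *Fkbp5* −0.0338 with the block and −0.0651 with a surrogate variable, and *Ddit4* 0.188 and 0.0134. Without 1 mouse, the log2FC of *Fkbp5* ranged from −0.0636 to 0.0536 in *Zmat3*-/- and −0.13 to 0.13 in TKO against wt mice, and that of *Txnip* from −0.0683 to 0.0669 in *Zmat3*-/- mice. Between TKO and *Zmat3*-/- mice these ranges were −0.0648 to 0.0866 for *Nr3c1*, −0.0381 to 0.25 for *Tsc22d3*, −0.12 to 0.11 for *Fkbp5*, −0.13 to 0.18 for *Ddit4*, −0.19 to 0.0415 for *Sgk1* and −0.0074 to 0.43 for *Zbtb16*. Depth limits *Zbtb16* most among the 8, with as few as 22 counts.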

Other observations

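*Bcl2l11*, named after its values were seen, encodes BIM, a BH3-only protein that takes part in the killing of thymocytes by glucocorticoids, and its levels were lowest in wt, intermediate in *Zmat3*-/- and highest in TKO mice. It had 73.1, 91.0, 93.3 and 104 CPM in wt mice 1 to 4, 127, 129, 119 and 135 CPM in *Zmat3*-/- mice and 154, 171 and 146 CPM in TKO mice. The 3 ranges did not overlap. The log2FC was 0.50 in *Zmat3*-/- against wt (standard error 0.119, adjusted p = 0.103 from edgeR), 0.78 in TKO against wt (standard error 0.150, adjusted p = 0.138) and 0.28 in TKO against *Zmat3*-/- mice (standard error 0.0781, adjusted p = 0.615), so none passed. With DESeq2 the adjusted p was 0.00292, 0.000211 and 0.113. Against wt mice 3 and 4 alone the log2FC was 0.37 and 0.66, and against wt mice 1 and 2 alone 0.63 and 0.92. Groups did not overlap, with TKO higher, for 3.21% of all genes between TKO and *Zmat3*-/- mice.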
